A study of Rattus norvegicus with 32 samples.

Results

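Mammary gland RNA from 8 rats killed on day 3 of the estrous cycle was set against RNA from 8 rats killed on day 2, the day of estrus. These 16 arrays are part of 32, each read from the glands of a different rat. The 8 rats of day 3 were killed at hours 57 to 67.1, counted from the midnight that opened day 1, and the 8 rats of day 2 at hours 31.6 to 43, and an array of 40 h, which the study set aside as faulty, was kept out of every comparison unless it is named. All rats were untreated, adult, virgin Sprague Dawley females with regular 4-day cycles. Each hour has a single rat, so the rats of a day serve as its replicates, and the spread within a day holds differences between hours, between animals and between arrays. The arrays are of the Affymetrix Rat 230 2.0 type, on which several short oligonucleotides, together a probe set, read a transcript as a fluorescence intensity. The authors computed the intensities, on a linear scale, with GC-RMA, a method that corrects background according to the letters of each oligonucleotide and brings the arrays to a shared distribution. A probe set entered the tests if its intensity was at least 10 on each of the 31 arrays other than that of 40 h, which held for 21068 probe sets and failed for 9974. The limma fit of log2 intensities held a level for each day of the cycle and a slope for the clock hour, since the rats of day 3 were killed at a mean clock hour of 13.9 and those of day 2 at 12.8. A probe set passed the test if its Benjamini-Hochberg adjusted p over all 21068 was under 0.05.

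In the rodent cycle, estradiol peaks on the eve of estrus and ovulation follows. Progesterone from the new corpora lutea is then high for a short time, and in most cycles without mating it falls again. The mammary gland answers these hormones with a small wave of epithelial growth and regression in each cycle. Cells with receptors for estrogen and progesterone sense the hormones and pass the signal on through secreted factors, while the fat pad, vessels and immune cells around the ducts make up much of the tissue. RNA from the whole gland mixes all of these cells, so that fewer cells of a type and less RNA per cell cannot be told apart.

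The keratins of both epithelial layers were bright in every rat, with Krt18 at 3129 to 4747 on day 3 and 2360 to 3421 on day 2, and Krt14 at 701 to 1627 on day 3 and 862 to 1685 on day 2. Array medians lay between 50 and 52.8 on day 3 and between 50.7 and 54.7 on day 2, and any pair of the 16 arrays correlated at 0.978 to 0.993 over log2 intensities. Skeletal muscle, which lies under the gland, varied between rats: the mean log2 level of 6 muscle genes, set to 0 at the mean of the 31 rats, spanned -1.60 to 1.89 on day 3 and -3.03 to 2.22 on day 2.

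On day 3, 57 probe sets differed from day 2. Of these, 14 were higher, 0.0665% of all tested, and 43 were lower, 0.204%. They stand for 11 named genes that rose and 28 that fell, beside 2 higher and 11 lower probe sets without a single gene symbol. The changes that passed had a median size of 0.80 on the log2 scale among the higher probe sets, up to 3.75, and 0.68 among the lower ones, up to 2.37, against a median size of 0.11 over all probe sets. The intensities of all 8 rats of day 3 lay above those of all 8 rats of day 2 for 6 probe sets, 0.0285% of those tested, and below them for 13, 0.0617%. Of the 57 that passed, 12 had days that did not overlap in this way, 4 of them higher and 8 lower. At an unadjusted p under 0.05 there were 1033 higher probe sets, 4.9%, and 1643 lower, 7.8%, and the median change over all probe sets was -0.03, with 42.8% above 0. Higher probe sets made up 24.6% of the calls, 41.3% when each array was centred on its median (19 higher, 27 lower) and 37% after quantile normalization (20 higher, 34 lower). The 57 changes kept their sign in every alternative in which they were tested. The counts rested on single rats: 2 probe sets were higher and 7 lower without the rat of 57 h, 4 and 17 without that of 67.1 h, 5 and 17 without that of 32.8 h, 46 and 77 without that of 62.5 h, and 33 and 83 without that of 65.6 h. Leaving out the rat of 31.6, 35.5, 38.3, 59.8, 61.3 or 64.2 h also moved a count by over 1.5 times, with 7 to 11 higher and 18 to 30 lower.

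The gene with the largest rise was LOC102552398, a predicted rat gene with no role given in the annotation. Its intensity spanned 86.7 to 1130 with a median of 754 on day 3, and 12.6 to 156 with a median of 28.8 on day 2. In 7 of the 8 rats of day 3 it was above every rat of day 2, and the rat of 62.5 h, at 86.7, lay within the day 2 range. The fitted change was 3.75 ± 0.65 on the log2 scale (standard error, as for all fitted changes below), a 13.5-fold difference, with an adjusted p of 0.00853. Within day 2 the highest values, 156, 116 and 70, were those of the rats of 37.1, 43 and 41.6 h.

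Il17b, which encodes a secreted cytokine of the interleukin-17 family, had the smallest adjusted p of all, 0.00171. The rats of day 3 had 418, 384, 526, 874, 269, 775, 326 and 634 in the order of their hours, against 81.4, 68.9, 84.5, 69.6, 102, 211, 125 and 201 in those of day 2. Every rat of day 3 was above every rat of day 2. The means were 526 ± 218 on day 3 and 118 ± 57.5 on day 2 (SD, n = 8 each), and the fitted change of 2.13 ± 0.30 is a 4.39-fold difference.

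Scd2, a desaturase that puts a double bond into saturated fatty acids, rose by 1.22 ± 0.25 (adjusted p = 0.027). Its median was 2858 on day 3, with a range of 1819 to 4903, and 1139 on day 2, with a range of 696 to 1808. The lowest rat of day 3, that of 65.6 h, stood just above the highest of day 2, that of 34.5 h. A second probe set for Scd2, at means of 117 on day 3 and 75.0 on day 2, had a change of 0.51 with an adjusted p of 0.511, and another, dim one 0.12 with an adjusted p of 0.406. The related desaturase Scd, from another gene of the same family, showed 0.10 ± 0.62 (adjusted p = 0.966). How far the Scd2 probe sets also read other members of the family was not tested.

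S100a14, a small calcium-binding protein of epithelia, rose by 1.03 ± 0.22 (adjusted p = 0.0386). It spanned 600 to 1391 on day 3 and 233 to 722 on day 2, so that the days overlapped, and a second probe set did not pass (0.93, adjusted p = 0.0973). Ggh, the lysosomal hydrolase that trims the glutamate tail of folates, rose by 0.54 ± 0.10 (adjusted p = 0.0177), with 760 to 943 on day 3 and 479 to 723 on day 2 and no overlap. Dpep1, a membrane dipeptidase whose substrates include leukotriene D4 and cystinylglycine, rose on 2 of its 3 probe sets, by 0.50 ± 0.11 (adjusted p = 0.0491) and 0.43 ± 0.09 (adjusted p = 0.0332), and the days did not overlap on the second of these.

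The other genes that rose were Ska2l1 (1.48), Mcm8, a helicase of recombination repair (0.80), Slc4a11, an ion transporter of the cell membrane (0.79), the peroxiredoxin-like Prxl2a (0.52) and the histone gene H2ac25 (0.38), with adjusted p of 0.026 to 0.0496. For each of these 5 genes the ranges of the days met, and a second probe set for H2ac25 did not pass (0.29, adjusted p = 0.371). Of the 4 higher genes that come next in order of p without passing, Serpinb1a, an inhibitor of neutrophil proteases, had ranges that did not meet, 168 to 284 on day 3 and 122 to 156 on day 2 (0.64 ± 0.15, adjusted p = 0.0551). Pcsk2, a protease that matures peptide hormones, Gna14, a G protein subunit, and Mbd5 had changes of 1.09, 0.86 and 0.36 with adjusted p of 0.0551, 0.0551 and 0.057.

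**Figure D1:**
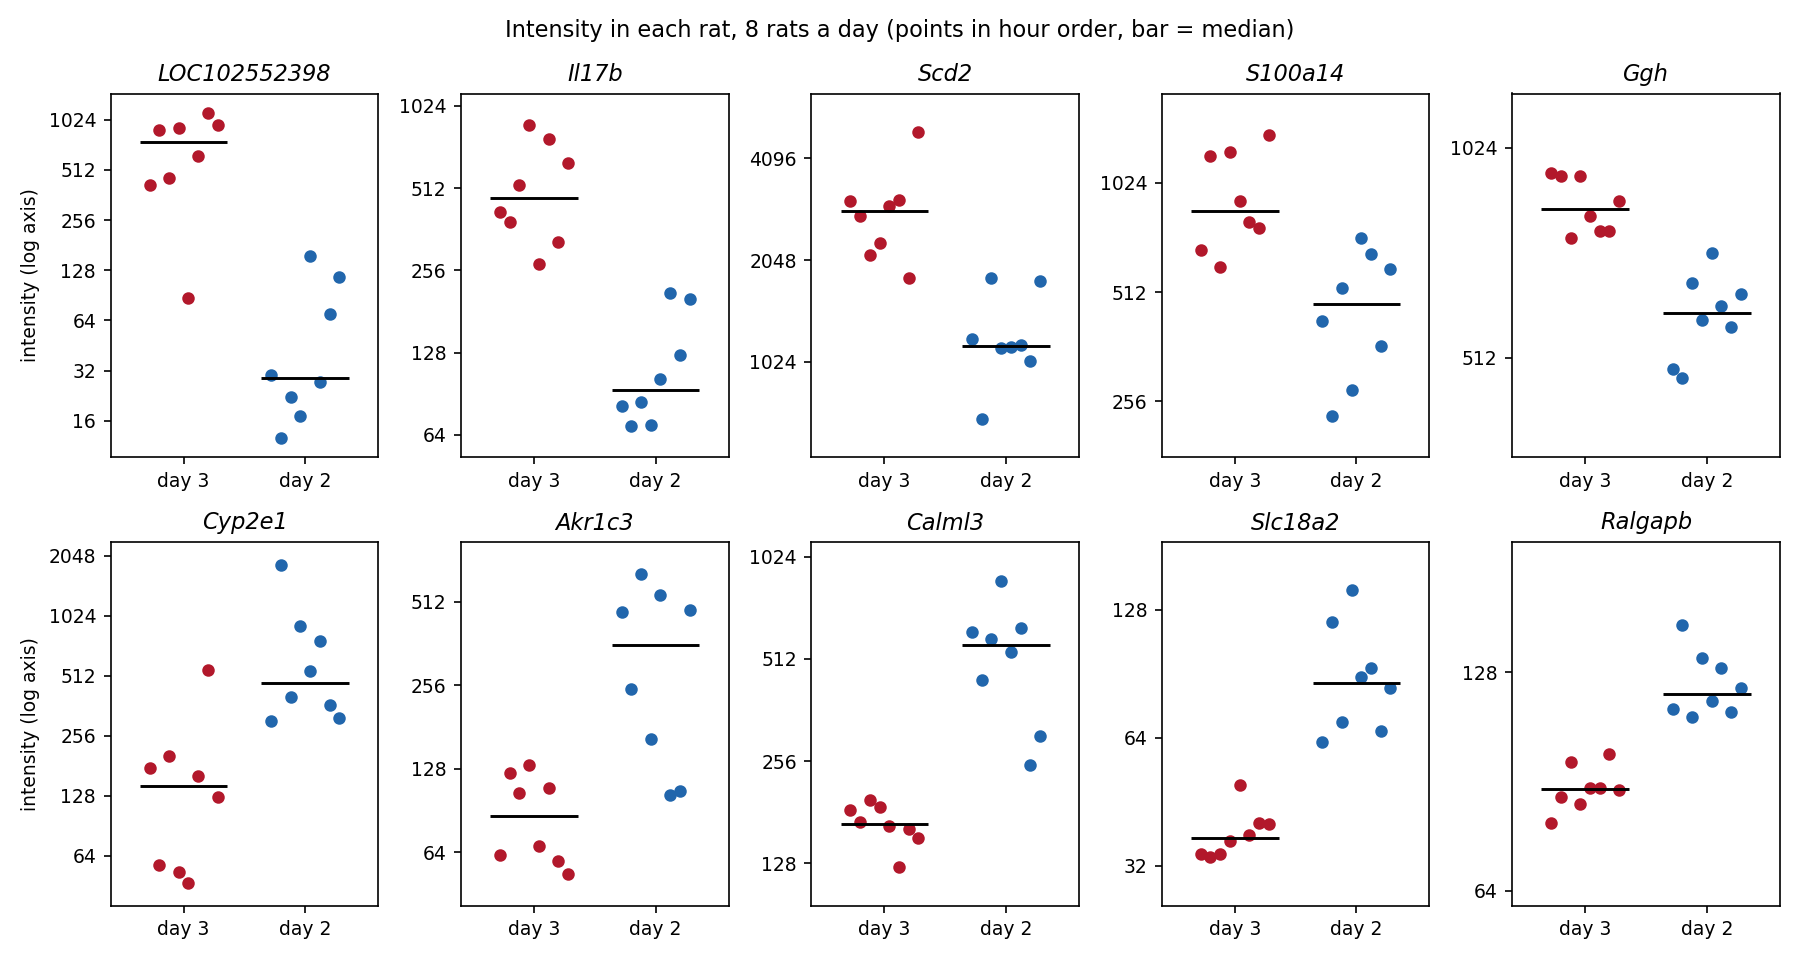
Intensity (log axis) of 5 genes that were higher on day 3 (upper row) and 5 that were lower (lower row) in each of 8 rats of day 3 (left, red) and 8 rats of day 2 (right, blue). Points of a day run from its first to its last hour and the bar is the median. The days are apart for Il17b, Scd2, Ggh, Calml3, Slc18a2 and Ralgapb, and the rat of 62.5 h is the lowest point of day 3 for LOC102552398, at 86.7.

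Among the genes that fell, Slc18a2 was read by 3 probe sets that all passed. It encodes the vesicular monoamine transporter, which loads amines such as serotonin and histamine into storage vesicles. On the brightest of the 3, the rats of day 3 had 33.5 to 49.5 with a median of 37.2, and those of day 2 had 62.5 to 142 with a median of 86.2. The changes were -1.21 ± 0.19 (adjusted p = 0.0021), -1.0 ± 0.15 (adjusted p = 0.00206) and -0.92 ± 0.17 (adjusted p = 0.0172), and on none of the 3 did the days overlap. Mast cells are rich in this transporter in rodents, and none of the 8 mast cell markers passed: their median change was -0.20, from -0.60 for Gata2 (adjusted p = 0.092), a transcription factor of mast and endothelial cells, to -0.07 for Hdc, the enzyme that makes histamine. The mean log2 level of that list spanned -0.63 to 0.38 on day 3 and -0.25 to 0.45 on day 2, and its part in the change of Slc18a2 was not tested. Cysltr1, the receptor for leukotriene D4, fell by 0.58 ± 0.13 on the log2 scale (adjusted p = 0.0497), with 15.2 to 25.0 on day 3 and 21.8 to 39.1 on day 2.

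Calml3, a calmodulin-like calcium sensor known from human epithelia, fell by 1.52 ± 0.25 on the log2 scale, or 2.88-fold (adjusted p = 0.00558). All rats of day 3 lay between 125 and 197, a narrow band, whereas those of day 2 ran from 249 to 870 with the rats of 41.6 and 43 h lowest, at 249 and 304. Akr1c3, an aldo-keto reductase whose human namesake acts on steroids and prostaglandins, averaged 89.0 ± 31.5 on day 3 and 344 ± 214 on day 2 (SD, n = 8 each). Its change was -1.65 ± 0.32 (adjusted p = 0.0181). The rats of 38.3 and 41.6 h, at 103 and 106, lay within the range of day 3, which was 53.4 to 132.

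Several genes of lipid handling were among those that fell. Cyp2e1, a cytochrome P450 that oxidises ethanol and fatty acids, had the largest drop of a named gene, -2.22 ± 0.47 (adjusted p = 0.034). It spanned 46.8 to 547 with a median of 143 on day 3 and 303 to 1843 with a median of 469 on day 2, and the rat of 65.6 h, at 547, was the one rat of day 3 within the day 2 range. Nceh1, which hydrolyses cholesterol esters, fell by 0.99 ± 0.22 (adjusted p = 0.043). In the rats of 37.1, 41.6 and 43 h it was at 125, 135 and 105, against 215 or more in other day 2 rats. Scarb1, the receptor that takes up cholesterol from high-density lipoprotein, fell by 0.55 ± 0.11 (adjusted p = 0.0294), and Eci2, an enzyme that helps to oxidise unsaturated fatty acids, fell by 0.57 ± 0.12 (adjusted p = 0.0371). These genes were grouped by their known roles after their values were seen, and none of the 13 adipocyte markers passed: they had a median change of -0.03, as over all probe sets, with mean levels of -0.54 to 0.85 on day 3 and -0.58 to 0.23 on day 2.

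Genes known from blood vessels also fell. Sox17, a transcription factor of arterial endothelium, changed by -0.68 ± 0.13 (adjusted p = 0.019), with 15.7 to 28.7 on day 3 and 23.8 to 43.1 on day 2. A second, brighter probe set for Sox17 did not pass, with means of 617 on day 3 and 778 on day 2 (-0.25, adjusted p = 0.552). Ccm2l, a scaffold of endothelial junction signalling, changed by -0.59 ± 0.11 (adjusted p = 0.0181), Mmrn2, an extracellular glycoprotein of endothelium, by -0.49 ± 0.11 (adjusted p = 0.0497) and Adgrl4, an adhesion receptor of endothelium, by -0.44 ± 0.10 (adjusted p = 0.0422). Thbs2, a matrix protein that restrains vessel growth, fell by 0.92 ± 0.17 (adjusted p = 0.0145), with 90.3 to 152 on day 3 and 149 to 415 on day 2. This grouping too was made after the values were seen.

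The endothelial marker list, which shares no gene with these, is set beside them. None of its 9 members passed, 5 had an unadjusted p under 0.05, all lower, and its median change was -0.23 against -0.03 over all probe sets. Vwf, the clotting factor stored by endothelial cells, was at 241 to 380 on day 3 and 348 to 622 on day 2 (-0.61 ± 0.15, adjusted p = 0.0659). Tie1, Tek, the receptor for angiopoietins, and Esam had changes of -0.42, -0.35 and -0.39, with adjusted p of 0.181, 0.174 and 0.136, while Kdr and Flt1, receptors for vascular endothelial growth factor, were at 0.02 and 0.03. The mean level of the list spanned -0.33 to -0.04 on day 3 and -0.14 to 0.24 on day 2, with the rat of 43 h as the one rat of day 2 below 0. The part of vessel content in the fall of the genes above was not tested.

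The rest of the genes that fell had diverse roles. Npw, the precursor of neuropeptide W, changed by -1.19 ± 0.23 (adjusted p = 0.0177), and its range was 23.2 to 89.9 on day 3 and 46.7 to 124 on day 2, with the rat of 62.5 h highest on day 3. Gpatch4, a nucleolar RNA-binding protein, fell on 3 of its 4 probe sets, by 0.95, 0.83 and 0.74 (adjusted p = 0.0371, 0.0294 and 0.00558), and the fourth was at -0.86 with an adjusted p of 0.0559. The protease inhibitor Serpina3n (-0.83), the heparan sulfate enzyme Extl1 (-0.81), the kinase Pim3 (-0.73) and the LIM protein Lmcd1 (-0.59) followed, with Smim38 at -1.46. Within day 2, the rats of 37.1, 41.6 and 43 h had 77.2, 59.5 and 75.8 for Smim38, against 151 to 331 in the others. For Extl1 they had 49.4, 35.2 and 48.9, against 81.3 to 118. A second probe set for Extl1 did not pass (-0.95, adjusted p = 0.1).

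Ralgapb, a subunit of the complex that switches off Ral GTPases, had a small change with little spread. Its intensity was 79.3 to 98.8 on day 3 and 111 to 149 on day 2, a change of -0.47 ± 0.07 (adjusted p = 0.00206). A second probe set was at -0.16 with an adjusted p of 0.315. Falls of 0.27 to 0.53 on the log2 scale were measured for Upp1, which splits uridine, Deptor, an inhibitor of the kinase mTOR, Tgfbrap1, C13h1orf115, the cytosolic peptidase Dpp8, Abhd13 and the Golgi scaffold Gopc. The days did not overlap for C13h1orf115 and Dpp8.

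The largest fall of all was on a probe set with no gene symbol, at 123 ± 43.9 on day 3 and 903 ± 585 on day 2 (SD, n = 8 each; -2.37 ± 0.43, adjusted p = 0.0145). Another 2 such probe sets changed by -1.97 and -1.41. On the first the highest rat of day 3 was at 181 and the lowest of day 2 at 131. Each of these probe sets was lower in the rats of 37.1, 41.6 and 43 h than in the other rats of day 2. The first was at 290, 315 and 131 in them and at 833 to 1558 in the other rats of day 2. The other 2 were at 103, 128 and 63.7 against 314 to 686, and at 571, 509 and 368 against 1051 to 1814.

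Of the 27 named genes that passed and are shown in the plot of fitted changes, 5 passed under every alternative in which they were tested: LOC102552398, Il17b, Calml3, Slc18a2 and Ralgapb. The other 22 lost the call under at least 1 alternative, and those 22 lost it without the rat of 57 h. With the mean levels of the adipocyte, muscle, luminal and lymphocyte lists as covariates, 21 of the 27 did not pass.

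**Figure D2:**
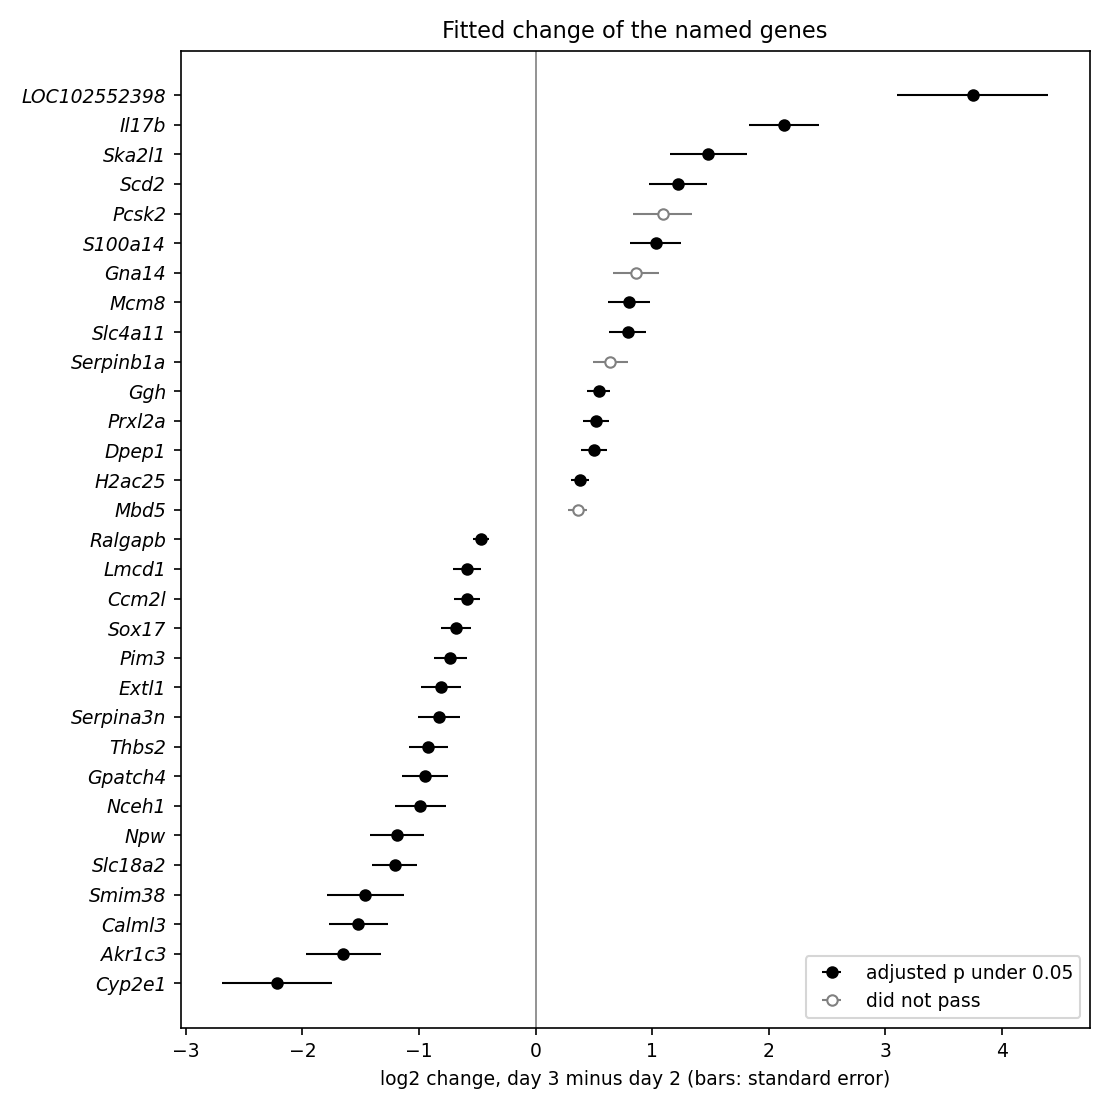
Fitted log2 change, day 3 minus day 2, with its standard error, for the 15 genes at the top of each direction and Ralgapb. Filled points passed the test at an adjusted p under 0.05 and the 4 open points, Pcsk2, Gna14, Serpinb1a and Mbd5, did not. The changes run from 3.75 for LOC102552398 to -2.22 for Cyp2e1.

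The levels of these genes on the other days are given beside the comparison. From day 1 to day 4, LOC102552398 averaged 145 ± 266, then 56.4 ± 53.2, then 682 ± 348 and lastly 726 ± 307 (SD, n = 8, 8, 8 and 7). Il17b averaged 146 ± 82.9, 118 ± 57.5, 526 ± 218 and 371 ± 72.7 over the same days, and Scd2 1507 ± 683, 1239 ± 376, 2877 ± 942 and 1835 ± 842. For Il17b and LOC102552398 the means of days 3 and 4 were both above those of days 1 and 2, while Scd2 had its highest mean on day 3. Calml3 averaged 640 ± 299, 529 ± 198, 168 ± 22.9 and 199 ± 79.3 on the 4 days. Slc18a2 averaged 63.9 ± 18.0, 90.8 ± 27.7, 38.3 ± 5.25 and 53.3 ± 19.2. Calml3 was high on days 1 and 2, whereas Slc18a2 had its highest mean on day 2 and its lowest on day 3. Since the same rats of days 2 and 3 enter these means and the comparison, the means are no independent support for it.

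The 27 gene lists cover the cell types and pathways of the gland. No member of any list passed the test by limma, and the lists are described by their medians and by the members with an unadjusted p under 0.05, which 4.9% of all probe sets had in the higher and 7.8% in the lower direction. Each gene is represented by its brightest probe set. With array weights, 3 endothelial and 2 luminal genes passed, in a setting where 148 probe sets were higher and 241 lower of all 21068. The lists with the highest medians were lymphocyte (0.82), mitosis (0.70), plasma cell (0.60), fatty acid synthesis (0.50) and interferon-stimulated (0.35). Those with the lowest were steroid receptors and hormone-sensing epithelium (-0.32), immediate early genes (-0.25), macrophage (-0.23) and endothelial (-0.23).

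**Figure D3:**
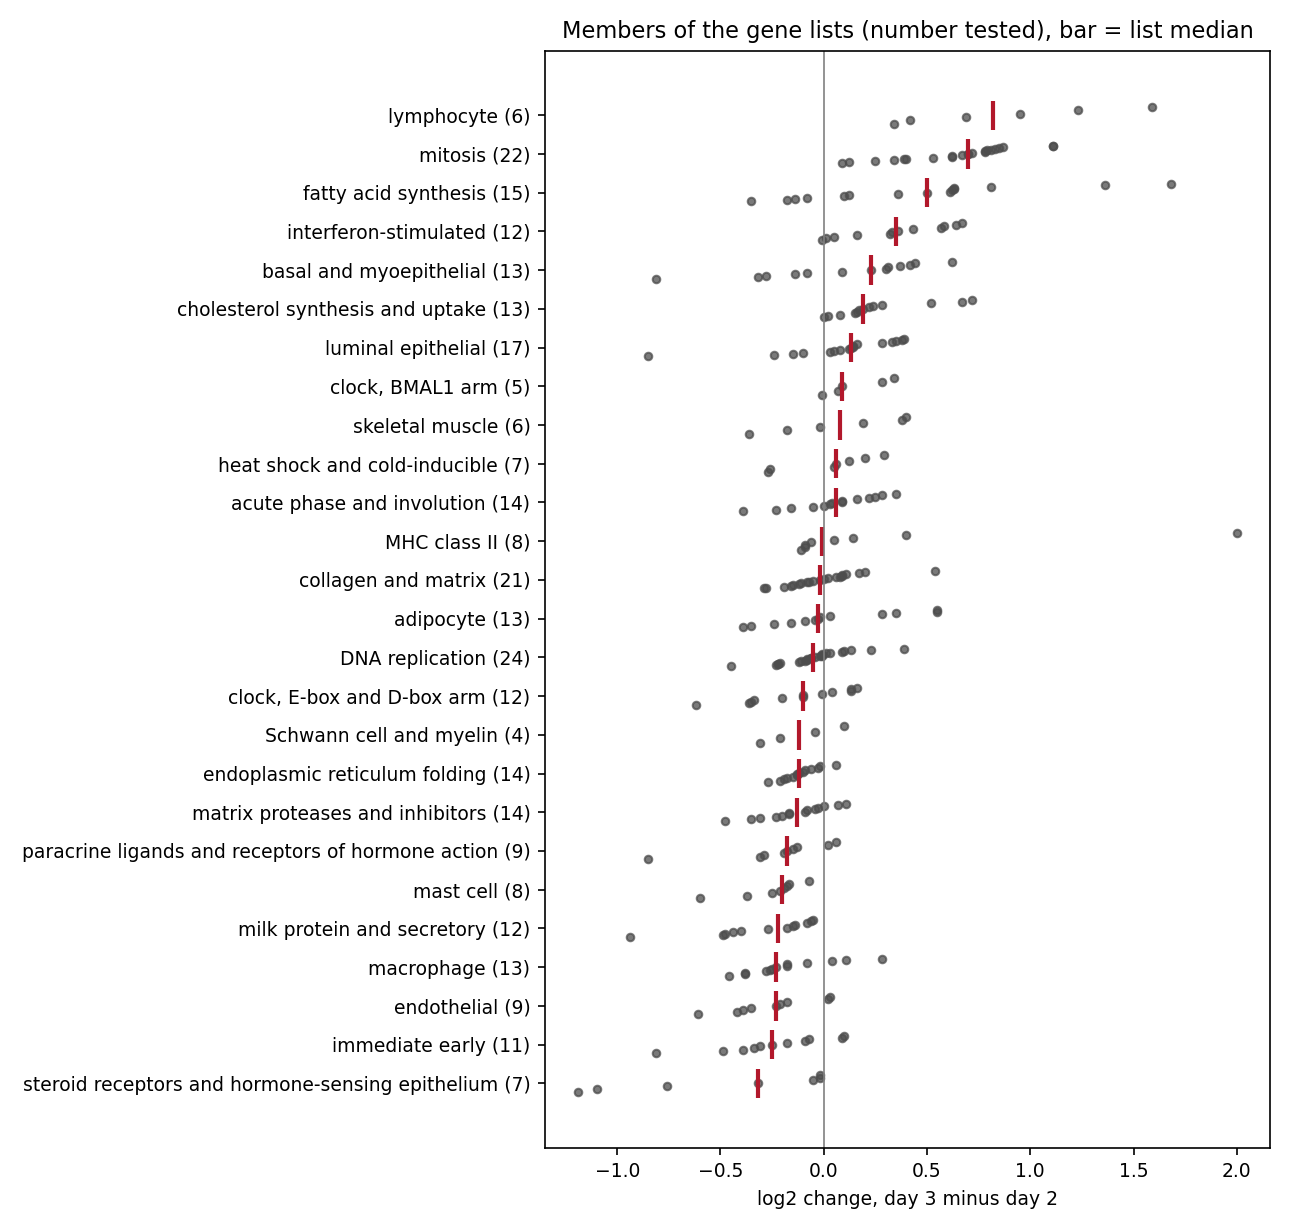
Fitted log2 change, day 3 minus day 2, of each tested member (dots) of 26 gene lists with at least 4 tested genes, whose number is in brackets, with the list median as a bar. All 22 mitosis genes lie above 0 and all 7 hormone-sensing genes below it, with medians of 0.70 and -0.32, and no member passed the test.

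All 22 mitosis genes tested had changes above 0, from 0.09 for Aurka to 1.11 for Ccnb2 and Ccna2, yet a single member, Cenpf, had an unadjusted p under 0.05. The cyclins and kinases of this list drive cells into division, and its kinesins and centromere proteins build the spindle. Cdk1, the kinase that starts mitosis, was at 53.7 to 778 with a median of 124 on day 3 and at 23.0 to 389 with a median of 83.0 on day 2 (0.85 ± 0.50, adjusted p = 0.47). Mki67, the marker of dividing cells, was at 81.3 to 1118 with a median of 158 on day 3 and 32.3 to 500 with a median of 107 on day 2 (0.87 ± 0.51, adjusted p = 0.469). Rats differed more within a day than the days did. The mean level of the list was 3.11 in the rat of 62.5 h, 1.43 in that of 58 h and between -0.52 and 1.03 in the other 6 rats of day 3, against 2.01 in the rat of 43 h, 1.34 in that of 37.1 h and between -1.10 and 0.29 in the other 6 rats of day 2.

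The DNA replication list, whose members copy the genome before division, did not follow. Of its 24 genes 7 were above and 17 below 0, with a median of -0.05. Pcna, the sliding clamp of the polymerases, was at -0.08 and Mcm2, a subunit of the replicative helicase, at -0.04, with adjusted p of 0.871 and 0.966. The rats of 62.5, 43 and 37.1 h stood high here too: the list mean was 1.26 at 62.5 h against 0.30 or less in the other rats of day 3, and 0.90 at 43 h and 0.77 at 37.1 h against 0.23 or less in the other rats of day 2.

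Mitotic genes carry known promoter elements, the CCAAT box and the cell cycle homology region with the letters TTTGAA or TTCGAA. In the 300-base promoters of RefSeq, build GRCr8, 18 of the 22 genes had an entry. CCAAT, on either strand, was in 13 of the 18 and in 37.5% of all 33469 promoters, TTTGAA or TTCGAA in 14 of the 18 and in 19.7% of all, and both kinds in 11 of the 18 and in 7.95% of all. The 120 bases before the start are printed for 3 members to show these letters, with the CCAAT box and TTTGAA, on either strand, in capitals where present (ATTGG is the box read on the other strand). They lie at chr20:19265173-19265292 on the plus strand for Cdk1, at chr1:199952594-199952713 on the minus strand for Mki67 and at chr1:186147538-186147657 on the plus strand for Plk1, a kinase of the spindle.
Cdk1: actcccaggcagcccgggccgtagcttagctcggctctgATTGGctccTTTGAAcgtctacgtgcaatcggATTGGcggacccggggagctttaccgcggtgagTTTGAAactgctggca
Mki67: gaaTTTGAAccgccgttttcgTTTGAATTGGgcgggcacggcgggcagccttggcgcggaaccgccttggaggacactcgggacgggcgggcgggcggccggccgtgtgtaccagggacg
Plk1: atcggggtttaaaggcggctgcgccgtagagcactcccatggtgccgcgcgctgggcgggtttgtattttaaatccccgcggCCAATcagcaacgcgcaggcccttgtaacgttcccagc
In Cdk1 each element is present more than once, in Mki67 a TTTGAA and a reversed CCAAT share a base, and the stretch of Plk1 holds a single CCAAT and neither TTTGAA nor TTCGAA. A match of letters is a description of the window and not of a factor bound there.

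All 7 genes of the steroid receptor and hormone-sensing list were at or below -0.02, and 3 of them, with an unadjusted p under 0.05, differed widely among the rats of day 2. Pgr, the progesterone receptor and itself a target of estrogen, was at 49.4, 57.3, 46.6, 47.6, 67.4, 49.4, 54.9 and 69.7 in the rats of day 3. In those of day 2 it was at 255, 252, 347, 276, 54.3, 241, 35.3 and 34.0. Thus 5 rats of day 2 were at 241 or more, and those of 37.1, 41.6 and 43 h were within or below the range of day 3. The fitted change, adjusted for the clock hour, was -1.19 ± 0.39 and did not pass (adjusted p = 0.199).

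Greb1, a target of estrogen and cofactor of its receptor, and Stc2, a secreted glycoprotein also known as an estrogen target, were low in the same 3 rats of day 2. Greb1 was at 21.1, 21.5 and 26.4 in them and 84.6 to 180 in the other 5, against 17.6 to 45.7 on day 3 (-1.10 ± 0.44, adjusted p = 0.278). Stc2 was at 22.1, 24.6 and 26.7 in them and 90.0 to 131 in the other 5, against 24 to 43.4 on day 3 (-0.76 ± 0.34, adjusted p = 0.342). Prom1, also on this list, was at 443, 259 and 277 in them and 701 to 990 in the other 5, against 386 to 591 on day 3. The array of 40 h, which was left out, had 270 for Pgr, 195 for Greb1, 93.9 for Stc2 and 1090 for Prom1. Prlr, the prolactin receptor, Gata3 and Tbx3, transcription factors of the luminal lineage, had changes of -0.05, -0.02 and -0.02, close to the median over all probe sets.

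Factors through which hormone-sensing cells act on their neighbours varied widely. Areg, the epidermal growth factor receptor ligand induced by estrogen, was at 219 to 3063 on day 3 and 149 to 4240 on day 2 (-0.85 ± 0.60, adjusted p = 0.553). Wnt4, induced by progesterone, was at 166 to 303 on day 3 and 157 to 527 on day 2 (-0.18 ± 0.17, adjusted p = 0.682). Of the 9 genes on this list none had an unadjusted p under 0.05, and the median change was -0.18.

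The epithelial lists had medians slightly above 0, 0.23 for basal and 0.13 for luminal markers, with members in both directions. Of the basal markers 8 were above and 5 below 0, and of the luminal ones 13 above and 4 below. In the basal and myoepithelial list, 7 of 13 genes had an unadjusted p under 0.05 in the higher direction, among them the contractile genes Actg2 (0.62 ± 0.20, adjusted p = 0.194), Acta2 (0.44 ± 0.19, adjusted p = 0.333) and Myh11 (0.37 ± 0.14, adjusted p = 0.266). Oxtr, the receptor for the oxytocin that makes these cells contract, was in the lower direction (-0.81 ± 0.39, adjusted p = 0.382), and the basal keratins Krt5 and Krt14 were at -0.32 and -0.08. Krt17 was at 58 to 165 on day 3 and 89.1 to 198 on day 2, and Tp63 at 166 to 297 and 199 to 344. Which cells the RNA of the contractile genes came from was not tested. In the luminal list, Krt18 came closest to passing, with 3129 to 4747 on day 3 and 2360 to 3421 on day 2 (0.39 ± 0.10, adjusted p = 0.0728). Its partner Krt8 was at 0.38 ± 0.11 (adjusted p = 0.138). Muc1, a mucin of the luminal surface, was at -0.85 ± 0.36 (adjusted p = 0.302).

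All 12 genes for milk proteins and secretion were at -0.05 or below, with a median of -0.22 against -0.03 over all probe sets. Lpo, an antibacterial peroxidase of milk, was at 23.0 to 87.3 on day 3 and 82.1 to 193 on day 2 (-0.94 ± 0.36, adjusted p = 0.255), and Mfge8, a coat protein of the milk fat globule, at 1462 to 3885 on day 3 and 2409 to 4751 on day 2 (-0.48 ± 0.19, adjusted p = 0.275). Csn2, beta-casein, differed far more between rats than between days. It spanned 403 to 18131 on day 3 and 790 to 20839 on day 2 (-0.05 ± 1.0, adjusted p = 0.988).

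In the fatty acid synthesis list, 6 of 15 genes had an unadjusted p under 0.05, all in the higher direction, and the median was 0.50. Fasn, the synthase, was at 4195 to 11740 with a median of 7702 on day 3 and 2829 to 6744 with a median of 5086 on day 2 (0.61 ± 0.22, adjusted p = 0.237). Elovl6, which lengthens the product, and Pnpla3, a lipid droplet enzyme induced by feeding, had changes of 1.36 ± 0.60 and 1.68 ± 0.62, with adjusted p of 0.334 and 0.245. The mean level of the list on day 3 was -0.38 at 57 h, -0.71 at 59.8 h and -0.65 at 64.2 h, and the other 5 rats lay between -0.01 and 1.09, against -0.85 to 0.01 on day 2. The adipocyte list mean was -0.53, -0.54 and -0.31 in the rats of 57, 59.8 and 64.2 h. It was -0.35 at 62.5 h and 0.23 to 0.85 in the remaining rats of day 3. The part of fat content in these changes was not tested. In the cholesterol list all 13 genes were at or above 0.00, with a median of 0.19. Dhcr7, the last enzyme of the pathway, was at 0.67 ± 0.20 (adjusted p = 0.152) and Cyp51 at 0.28 ± 0.09 (adjusted p = 0.191).

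Immune genes rested on a few rats. The 6 lymphocyte markers had changes of 0.34 to 1.59, with Cd3g, a chain of the T cell receptor complex, at 23.8 to 643 on day 3 and 18.3 to 53.5 on day 2 (1.59 ± 0.68, adjusted p = 0.322). The list mean was highest at 61.3 h, 2.12, and at 57 h, 1.90, followed by 1.0 at 67.1 h and then 0.69 at 59.8 h, with the other 4 rats of day 3 between -0.78 and -0.28, against -0.81 to -0.06 on day 2. The labels say that lymph nodes were removed, and the part of any remnant in these values was not tested. Jchain, which joins secreted antibodies, was at 1.19 (adjusted p = 0.507), with Prdm1, the other plasma cell marker tested, at 0.02. Interferon-stimulated genes had a median of 0.35, with Ifi44 at 0.67 ± 0.19 (adjusted p = 0.136) and list means of -0.46 to 1.26 on day 3 and -0.40 to 0.51 on day 2.

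Macrophage markers were mostly below 0, 10 of 13, with a median of -0.23. Cd163, a scavenger receptor of tissue macrophages, was at 211 to 385 with a median of 248 on day 3 and 322 to 415 with a median of 354 on day 2 (-0.46 ± 0.12, adjusted p = 0.105). MHC class II genes had a median of -0.01. RT1-Ba had a fitted change of 2.00 ± 1.03 (adjusted p = 0.415), with 1478 to 3927 on day 3. On day 2 it was at 15.9 at 35.5 h and 10.4 at 41.6 h, and at 1505 to 3901 in the other rats.

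Lists of the stroma, Schwann cells, muscle and cell stress had medians of -0.13 to 0.08, apart from the immediate early list. The median over all probe sets was -0.03. Collagen and matrix genes had a median of -0.02, and matrix proteases and their inhibitors of -0.13, with 12 of 14 genes below 0. In the protease list Timp3 and Timp2, which inhibit metalloproteases, were at -0.31 ± 0.10 and -0.20 ± 0.07 (adjusted p = 0.178 and 0.254). Medians were 0.06 for acute phase and involution genes, -0.12 for endoplasmic reticulum folding, 0.06 for heat shock and cold-inducible genes, -0.12 for Schwann cell markers and 0.08 for muscle. Of the folding genes 13 of 14 were below 0. In the immediate early list, whose median was -0.25 with 9 of 11 genes below 0, the mean level spanned -0.42 to -0.05 on day 3 and -0.80 to 0.89 on day 2.

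Clock genes are known to vary with the time of day. The fit already holds a slope for the clock hour, so their changes between the days are no independent check of the hour. No member of either arm had an unadjusted p under 0.05, and the medians were -0.10 for the E-box and D-box arm and 0.09 for the BMAL1 arm. The mean of the first arm was lowest in the earliest rat of each day, -1.05 on day 3 and -1.11 on day 2, and highest at 65.6 h on day 3, 1.15, and at 41.6 h on day 2, 1.13. The E-box, CACGTG on either strand, was in 4 of the 15 clock genes with a promoter entry and in 6.42% of all promoters. A gene with more than 1 entry, such as Nr1d1, was counted if any entry held the letters, whereas the share is of promoter entries.

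Whether the difference between the days moved with the hour was tested by giving each day a slope of its own. The slope of day 3 differed from that of day 2 for 0 probe sets by limma, 0% of those tested, with a smallest adjusted p of 0.126. At an unadjusted p under 0.05 it differed for 1256, 5.96%, with the slope of day 3 higher for 1.54% and lower for 4.42% of all probe sets. Members of 4 lists held many of these. Of the mitosis genes 15 of 22 had a lower slope on day 3 at that p, as did 12 of 24 DNA replication genes and 7 of 13 basal and myoepithelial genes, and 4 of 7 hormone-sensing genes had a higher one. The genes of a list were read in the same rats and are not independent of each other.

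Cdk1 had a slope difference of -0.37 ± 0.12 log2 units per hour (unadjusted p = 0.00609, adjusted p = 0.767 from limma) and Mki67 one of -0.34 ± 0.13 (unadjusted p = 0.0124, adjusted p = 0.777 from limma). For Actg2 it was -0.20 ± 0.04 (unadjusted p = 3.97e-05, adjusted p = 0.272 from limma). In the other direction Pgr had 0.33 ± 0.09 (unadjusted p = 9.84e-04, adjusted p = 0.684 from limma) and Greb1 0.37 ± 0.10 (unadjusted p = 0.00161, adjusted p = 0.747 from limma). The changes given above for these lists come from the fit with a slope shared by the days.

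**Figure D4:**
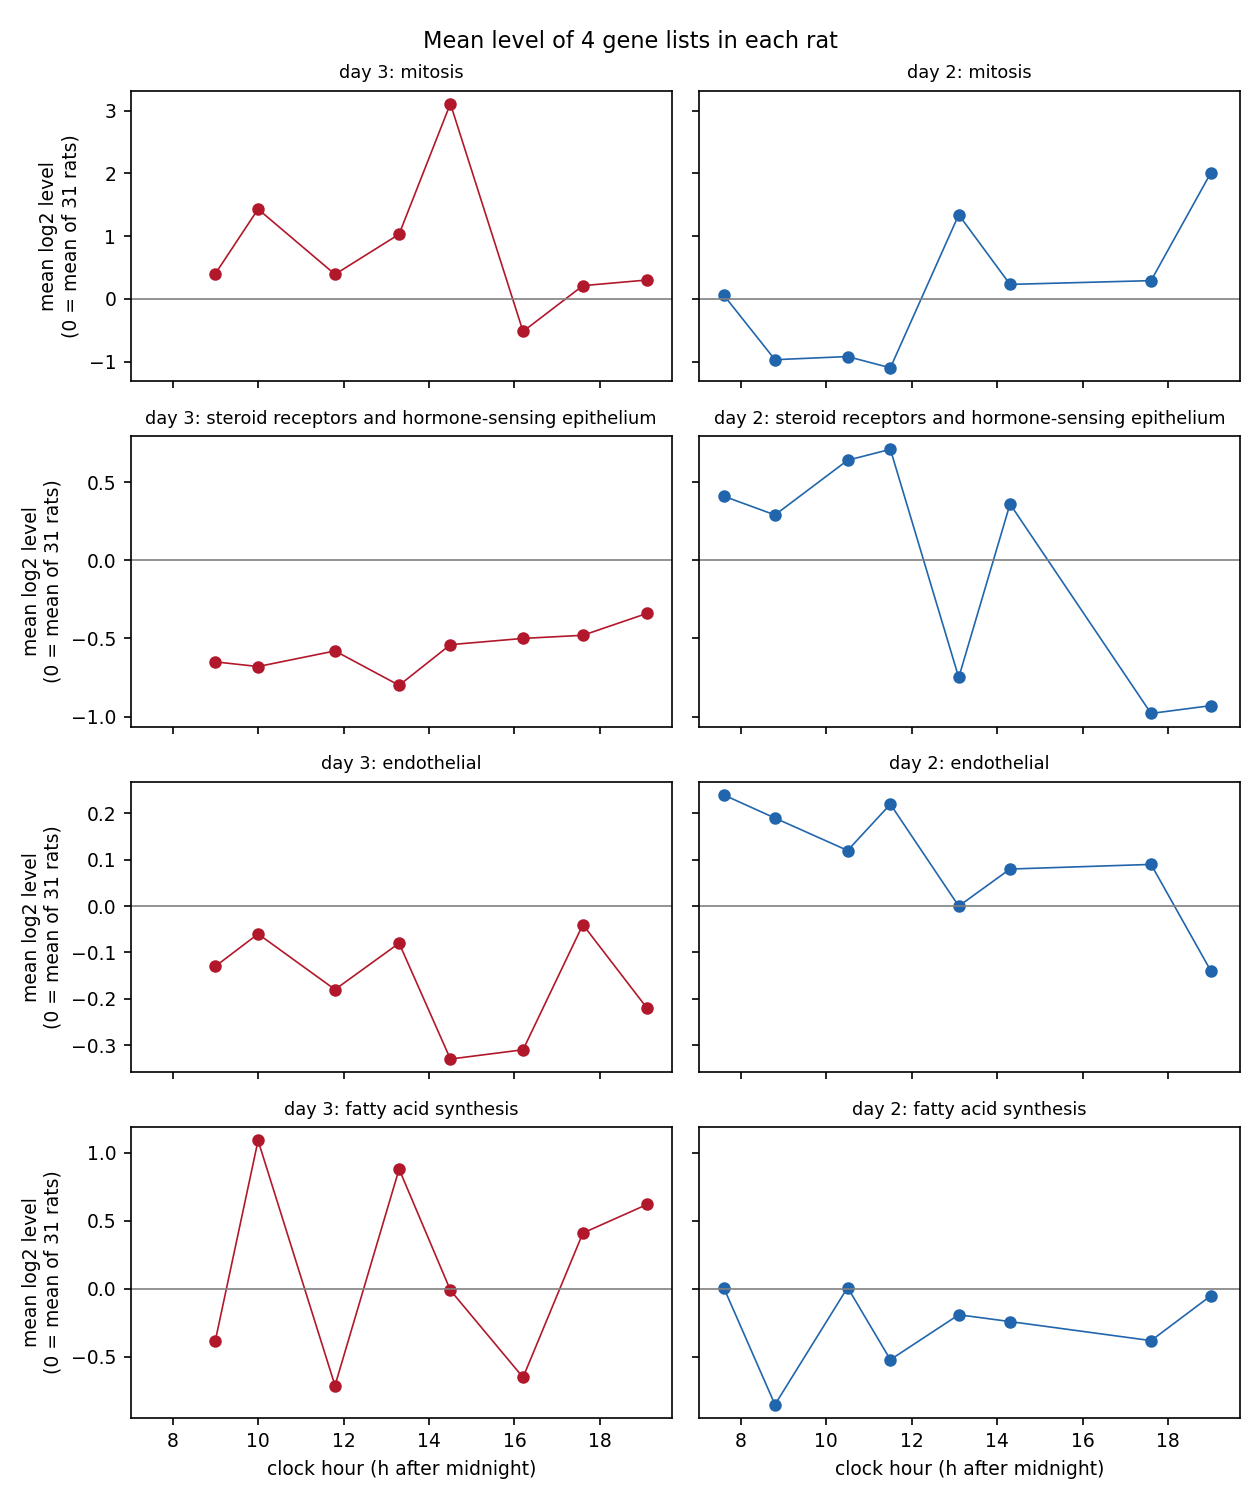
Mean log2 level of 4 gene lists in each rat, set to 0 at the mean of the 31 rats, against the clock hour, for 8 rats of day 3 (left, red) and 8 rats of day 2 (right, blue). The mitosis list peaks at 3.11 in the rat of 62.5 h, and the hormone-sensing list lies between -0.80 and -0.34 on day 3 and on day 2 at -0.75 (37.1 h), -0.98 (41.6 h) and -0.93 (43 h) and above 0 in the other 5.

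Single rats lay on the side of the other day for some of the 57 probe sets. Counted against the midpoint of the day means, the rats of 62.5 and 65.6 h were on the day 2 side for 14 and 13 probe sets, that of 58 h for 7 and the other 5 rats of day 3 for 1 to 3. Among the rats of day 2, those of 34.5 and 41.6 h were on the day 3 side for 12 each, those of 37.1 and 43 h for 9 each, that of 38.3 h for 8 and the other 3 for 2 to 4. The array of 40 h was on the day 3 side for 13.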

How the data were processed

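Total RNA from the mammary glands of 32 virgin rats was hybridised by the authors to Affymetrix Rat 230 2.0 arrays, 1 rat per array. The labels describe the fourth glands kept in a stabilising solution and extracted on a column, whereas the study's methods describe several left glands, frozen and extracted with phenol and a column. The authors computed the deposited intensities, linear and from 2.22 to 37316.9, with GC-RMA, whose version is not given in the sources used here. The number of arrays limits the precision, and no batch was given. Of 31099 probe sets, 57 controls were left out and 21068 had at least 10 on the 31 arrays used, of which 15568 carry a single symbol (11211 genes), 353 several and 5147 none. Log2 was taken and fitted with limma 3.58.1 in R 4.3.3 (lmFit and eBayes, a day factor of 4 levels and a clock-hour slope), after the fit was tested on simulated data. P-values rest on the spread within days over the 31 arrays, which holds differences between rats, arrays and hours together. Named genes were the 15 largest changes that passed in each direction, a gene by its probe set of largest change, filled up to 15 by unadjusted p where fewer passed, plus the 8 of smallest adjusted p and members of the lists. List members stand by their brightest probe set. Members, lists and tests were chosen with earlier results of these data known. Alternatives changed the arrays, the hour term, the filter, the normalization, the weights and the covariates, and left out each rat in turn. Tables and figures were made with Python 3.11.15 and pandas 2.3.3. Gene symbols came from the platform annotation.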

Additional observations from a re-analysis of the deposited data

Results flagged for a closer look

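Single rats stood far from the other 7 of their day, by Dixon's test, in 5 of 62 tests of named genes and 3 of 54 tests of list means, where chance flags about 1 in 20. The rat of 62.5 h was apart in 4 of these on day 3. It had 86.7 for LOC102552398, 89.9 for Npw with the next highest at 38.4, 169 for Gpatch4 with the next highest at 88.0, and a DNA replication mean of 1.26 with the next highest at 0.30. The rat of 65.6 h had 187 for Pim3, with the next at 134, and a Schwann cell and myelin mean of 0.17, with the next at -0.06. On day 2 the rat of 38.3 h had 302 for Gpatch4, with the next at 150, and the rat of 41.6 h an interferon-stimulated mean of 0.51, with the next at -0.07.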

How the results depend on the processing

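Against 14 higher and 43 lower probe sets, the counts were 6 and 8 with only the 16 arrays of days 2 and 3, 9 and 28 with a clock-hour slope in each day, 37 and 66 with the 40 h array added to day 2, 9 and 25 with at least 50 on all 31 arrays, 148 and 241 with array weights, and 3 and 10 with the 4 tissue lists as covariates. The filter of at least 50 left 13438 probe sets to test, with 33 of the 57 calls among them. Of those calls 9 higher and 24 lower passed again. Centring each array on its median gave 19 and 27. An alternative chosen after seeing the data, without the rats of 62.5 and 65.6 h, gave 63 and 102. Leaving out each rat in turn gave 2 to 46 higher and 7 to 83 lower. The rats of days 2 and 3 that moved a count by over 1.5 times gave, higher and lower, 7 and 26 (31.6 h), 5 and 17 (32.8 h), 8 and 30 (35.5 h), 11 and 22 (38.3 h), 2 and 7 (57 h), 10 and 25 (59.8 h), 8 and 19 (61.3 h), 46 and 77 (62.5 h), 7 and 18 (64.2 h), 33 and 83 (65.6 h) and 4 and 17 (67.1 h). The cause was not tested. No clock hour, a quadratic hour, the other filters, quantile normalization, a robust prior and leaving out the rats of 41.6 and 43 h stayed within 1.5 times. Similar counts can hold different probe sets. Without the rats of 41.6 and 43 h there were 15 higher and 56 lower, of which 8 and 29 were also main calls. The slope test by limma gave 0 probe sets in each alternative run. No paired analysis was possible because each array was read from a different rat.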
